A study of Danio rerio with 13 samples.

Results

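The collagen genes of zebrafish were examined for histone H3K4me3 and H3K27me3 at their promoters in the heart ventricle, before and after injury. Members were the gene IDs whose symbol began with "col", a number, "a" and a number, and each was represented by its promoter window with the highest mean H3K4me3 count. The pattern took 57 gene IDs, of which 2, col4a3bpa and col4a3bpb, are ceramide transfer proteins named after a collagen and were left out. The remaining 55 collagen gene IDs carry 52 symbols, because col6a3, col19a1 and col5a3b have 2 IDs each, and they stand among 24416 gene IDs outside the mitochondrial genome. By the known build of the protein they fall into 16 fibrillar, 6 basement membrane and 12 fibril-associated collagens, with 21 in other classes. These 21 are 5 beaded filament, 5 network-forming, 2 anchoring fibril, 3 multiplexin, 2 transmembrane and 4 other genes. The set is not complete, because col23a1a, col23a1b and a further col7a1l ID carry clone names as symbols, which the pattern missed.

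The fish were adults of the TuAB strain, 1 to 1.5 years old, and no transgene, mutant or drug is named for any group. Uninjured ventricles were set against ventricles taken 5 days after surgical resection of the apex. The apical part of each ventricle was dissociated and the cells held back by a mesh of 10 micrometres, enriched for cardiomyocytes, were fixed. Each mark was profiled by chromatin immunoprecipitation and sequencing in 3 libraries per condition, 12 in all, and 1 input library was not analysed here. The number of fish behind each library is not stated, so the spread between libraries may be technical.

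Collagens are the main structural proteins of the extracellular matrix. Fibrillar collagens give tissue its tensile strength, collagen IV forms the sheet of basement membranes, and fibril-associated collagens sit on the surface of fibrils and link them to their surroundings. After some injuries the zebrafish ventricle lays down a transient collagen-rich matrix at the wound, which is later cleared as muscle regrows. Fibroblasts, epicardial derivatives and endocardial cells are described as its sources. How far such a matrix forms after apex resection was not measured here. H3K4me3 marks promoters that are active or poised. H3K27me3 is deposited by Polycomb repressive complex 2 and is found at promoters held silent.

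Counts, fold changes, their errors and DESeq2 p-values are the authors' own, while medians, intervals, differences and z tests were computed from them. The authors' deposited tables give, for each window of 4000 bases, the mean normalised count over all libraries of a mark, and a log2 fold change, resected against uninjured, with its standard error (SE) from 3 libraries a group. Values of single libraries and the depth of each library were not analysed here, so no level per library is given. A gene was called when the authors' adjusted p was under 0.05.

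Most collagen promoters carried little H3K4me3. The median of the authors' mean count was 49.4 over the 55 collagens and 94.0 over all genes, whose quartiles were 41.8 and 252. Of the collagens, 12 lay above the median gene, 3 above the upper quartile and 22 below the lower quartile. A mean count of at least 100 was reached by 11 collagens, or 20%, against 49.0% of all genes.

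The 11 with high H3K4me3 were mostly chains of the abundant interstitial collagens I and VI, joined by the collagen V chain col5a2a and the commonest basement membrane chain. The authors' mean count at col4a2, a chain of the collagen IV trimer found in nearly all basement membranes, was 410, above 91.9% of genes. Collagen I, the main fibre of scars, had all 3 of its chains in this group, with authors' mean counts of 302 at col1a2, 301 at col1a1a and 231 at col1a1b. Collagen VI forms beaded filaments around cells. Its chains had authors' mean counts of 214 at col6a2, 211 and 202 at the col6a3 IDs, whose windows overlap, and 169 at col6a1, while col6a4a, with 72.8, lay below the median gene. The collagen V chain col5a2a, which takes part in starting collagen I fibrils, had 214, the fibril-associated COL16A1 had 125 and col12a1b had 108 in the authors' deposited table. Below the line came col27a1b with 98.6, so no wide gap separated the groups. The other collagen V genes lay further down, with 50.2 at col5a3a, 35.2 at col5a2b, 34.0 and 25.04 at the col5a3b IDs, and 29.0 at col5a1.

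The class medians of the authors' mean H3K4me3 count were close to each other, at 51.5 for fibrillar, 46.8 for basement membrane and 44.5 for fibril-associated collagens, while the 5 beaded filament genes had a median of 202. Within these 3 main classes the genes spread far wider than the medians did. Fibrillar genes ran from 25.04 to 302, basement membrane genes from 30.0 to 410, and fibril-associated genes from 28.2 to 125. The 5 network-forming genes, which include the collagen X and collagen VIII chains, ran from 35.3 to 46.8 in the authors' mean count. The 3 multiplexins, collagens XV and XVIII of the basement membrane zone, ran from 49.4 to 54.4.

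H3K27me3 stood somewhat higher at collagens than over all genes, but close to genes of like H3K4me3 level. The median of the authors' mean H3K27me3 count was 66.6 over collagens and 56.7 over all genes, whose quartiles were 43.4 and 72.5. Of 55 collagens, 39 lay above the median gene, 22 above the upper quartile and 2 below the lower quartile. Most genes with little H3K4me3 also lay above the median gene for H3K27me3. Counted over genes with an H3K27me3 fold change, 9233 of 12175 with an H3K4me3 mean under 100 did so, beside 35 of 44 collagens. By class the medians were 54.99 for fibrillar, 70.6 for basement membrane, 63.8 for fibril-associated and 73.5 for all other collagens.

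The highest authors' mean H3K27me3 count was 120, at the col5a3b ID ENSDARG00000101816, a fibrillar chain. It was followed by COL28A1 (1 of many), a collagen XXVIII gene, with 110. Next came col7a1, whose protein anchors skin basement membrane to the dermis in mammals, with 102, and the fibrillar col24a1 with 100.3. The level at col24a1 is less certain, as the SE of its H3K27me3 fold change was 0.67, against 0.33 at col7a1. Its other window, at -3.8 kb, had a mean of 57.7. Among fibril-associated genes, col14a1a had 99.2 and col12a1b 96.2 in the authors' deposited table. The highest basement membrane values were 92.9 at col4a5 and 86.0 at col4a6, a pair of genes that share a promoter region. All of these lay below the median gene for H3K4me3 except col12a1b.

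Across all genes the levels of both marks ran against each other, with a Spearman rho of -0.454 over the genes. Across the 55 collagens the rho was -0.036. The collagens cover a narrower range of H3K4me3, with quartiles of 37.0 and 76.6 against 41.8 and 252 for all genes. A rho for all genes of like H3K4me3 level was not computed, so the 2 values do not set the collagens apart. These are descriptions across genes of the same libraries, and genes are not independent replicates. The 11 collagens with an H3K4me3 mean of at least 100 had a median H3K27me3 mean of 54.4, between 47.1 and 96.2, and the other 44 a median of 70.9. The gene at 96.2 was col12a1b, which lay above the median gene for both marks. So did col1a1a, the col6a3 ID ENSDARG00000077139 and COL16A1, with lower H3K27me3 means of 66.6, 57.9 and 57.1.

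**Figure D1:**
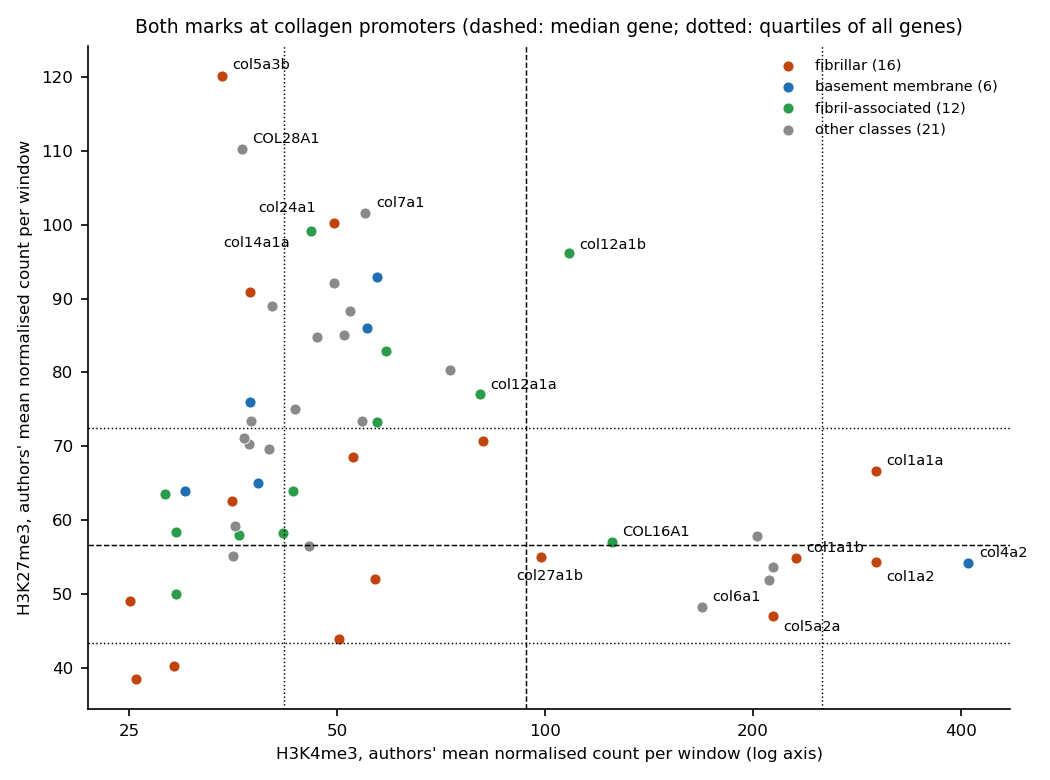
Authors' mean normalised H3K4me3 count (x axis, log scale) against that of H3K27me3 (y axis) at the 55 collagen promoter windows, each point 1 gene ID coloured by class; dashed lines give the median gene and dotted lines the quartiles of all genes. Most points crowd to the left of the median H3K4me3 line, and the 3 collagen I chains, col4a2 and 4 of the 5 collagen VI genes lie to the right of it, with col12a1b high on both axes.

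The first comparison asked how H3K4me3 at collagen promoters differed after resection. Only col12a1a passed the test, and it rose. Fibrillar and fibril-associated collagens mostly had fold changes above 0, while 5 of 6 basement membrane collagens lay below 0. The sizes were small beside the standard errors for most genes.

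Of 55 collagens, 24 had an adjusted p, because the authors' table gives none at a mean count under 51.8. By the authors' DESeq2 test, 1 of the 24 was called higher, against 1.52% of the 15351 genes with an adjusted p. None was called lower, 0 of 24, against 1.4% of genes. At an unadjusted p under 0.05 there were 4 of 55 collagens higher and 2 lower, against 4.26% and 4.61% of 24416 genes. The same counts, 1 higher and 0 lower, came at a threshold of 0.1, against 2.16% and 2.13% of genes. They came too with no filter on low counts, against 0.758% and 0.754%, and with a mean count of at least 50, against 1.49% and 1.37%. A single gene in 24 does not set the collagens apart from the background.

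The gene called was col12a1a (ENSDARG00000078322), with the window chr17:49877082-49881081 on the minus strand. Which genome build these coordinates follow is not stated in the sources used here. Collagen XII is a fibril-associated collagen that binds collagen I fibrils and is known from the epicardium and connective tissue of the zebrafish heart. The authors' deposited table gives it 80.4 as the mean H3K4me3 count, with a log2 fold change of 0.97 (SE 0.28, 3 libraries a group, adjusted p = 0.0236, DESeq2). The deposited H3K4me3 fold changes appear to be shrunken towards 0, as judged from a ceiling on their standard errors. With that shrinkage undone, the mean corresponds to about 43.7 in uninjured and 117 in resected ventricles, an estimate that assumes equal weight for both groups. At the same window the authors' H3K27me3 mean count was 77.1 and its log2 fold change 0.19 (SE 0.37).

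Its duplicate, col12a1b (ENSDARG00000019601, chr20:49878732-49882731, minus strand), was not called. The authors' deposited table puts its mean H3K4me3 count at 108, with a log2 fold change of 0.72 (SE 0.27, DESeq2 adjusted p = 0.143). Undoing the shrinkage places it at about 72.9 in uninjured and 144 in resected ventricles. Both copies of collagen XII thus lay above 0 by more than 2 SE, and only the a copy passed the threshold. Their difference was 0.25 with a 95% interval from -0.50 to 1.01, so the copies were not shown to differ.

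Collagen XI is a minor fibrillar collagen, best known from cartilage, where it sets fibril width together with collagen II. The authors' log2 fold change was 0.72 (SE 0.28, DESeq2 adjusted p = 0.172) at col11a1b, from a mean H3K4me3 count of 81.2. For col11a1a the authors' deposited table gives 0.74 (SE 0.29, DESeq2 adjusted p = 0.197) from a mean of 52.7. Neither passed the test. The other collagen XI chain, col11a2, had a log2 fold change of 0.12 (SE 0.30) in the same table.

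Fibrillar collagens had 14 of 16 H3K4me3 fold changes above 0, with a median of 0.18. That median was 0.12 over every window of these genes and 0.14 with the window of highest H3K27me3. Over all genes 52.3% lay above 0, with a median of 0.01. The collagen I genes, the most strongly marked of the class, had authors' log2 fold changes of 0.46 (SE 0.24, DESeq2 adjusted p = 0.465) at col1a1b, 0.24 (SE 0.25) at col1a1a and 0.10 (SE 0.22) at col1a2. None of them passed the test, and the last 2 lay within 1 SE of 0. Undoing the shrinkage gives about 269 in uninjured and 333 in resected ventricles at col1a1a, and 289 and 314 at col1a2. The fibrillar genes below 0 were col5a2b at -0.04 and the col5a3b ID ENSDARG00000101816 at -0.30 (SE 0.30).

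Fibril-associated collagens had 10 of 12 above 0, with a median of 0.28. That median was 0.11 over every window of these genes and 0.16 with the window of highest H3K27me3. Besides the collagen XII pair, the authors' log2 fold change was 0.52 (SE 0.29) at col14a1a, a close relative of collagen XII, and 0.49 (SE 0.30) at col9a1a, a chain of the cartilage collagen IX. Both had mean counts too low for an adjusted p. The clearest exception was COL16A1, with -0.51 (SE 0.26, DESeq2 adjusted p = 0.425) in the authors' deposited table, from a mean count of 125.

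Basement membrane collagens had 1 of 6 above 0 and 5 below, with a median of -0.16, where 47.7% of all genes lay below 0. The lowest was col4a2 (chr9:8749911-8753910, plus strand), with an authors' log2 fold change of -0.52 (SE 0.23, DESeq2 adjusted p = 0.270). It corresponds to about 498 in uninjured and 323 in resected ventricles with the shrinkage undone. The gene above 0 was col4a1, the partner of col4a2 in the collagen IV trimer, at 0.32 (SE 0.30) from a mean count of 38.4. The remaining values in the authors' deposited table were -0.37 at col4a4, -0.17 at col4a5, -0.16 at col4a6 and -0.04 at col4a3, all within 2 SE of 0.

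The 6 basement membrane values are not 6 separate measurements. The windows of col4a5 and col4a6 overlap, the window of col4a4 overlaps a second window of col4a3, and that of col4a2 overlaps the window of the uncharacterised gene FP103004.1. With every window that overlaps another gene's left out, col4a1 and col4a3 remain and the median becomes 0.14. In the RefSeq annotation of GRCz12tu col4a1 is the neighbour of col4a2, as the head-to-head pair is in mammals, yet the windows given for col4a1 lie 68.7 and 60.1 kb from that of col4a2. The low count at col4a1 is thus a value of those windows and not of the strongly marked col4a2 promoter.

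The 21 collagens of the other classes had 11 fold changes above 0 and a median of 0.01. Within collagen VI the chains diverged, with authors' log2 fold changes of 0.44 (SE 0.25) and 0.39 (SE 0.25) at the overlapping windows of the col6a3 IDs, 0.01 (SE 0.28) at col6a4a, -0.06 (SE 0.25) at col6a1 and -0.36 (SE 0.24, DESeq2 adjusted p = 0.681) at col6a2. The lowest values of these classes were -0.55 (SE 0.30) at col28a2a, a collagen XXVIII gene, and -0.49 (SE 0.30) at col8a1b, a network-forming chain known from vessel walls in mammals. Neither had an adjusted p in the authors' deposited table. Over all 55 collagens 36 lay above 0, or 65.5%, with a median of 0.09.

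**Figure D2:**
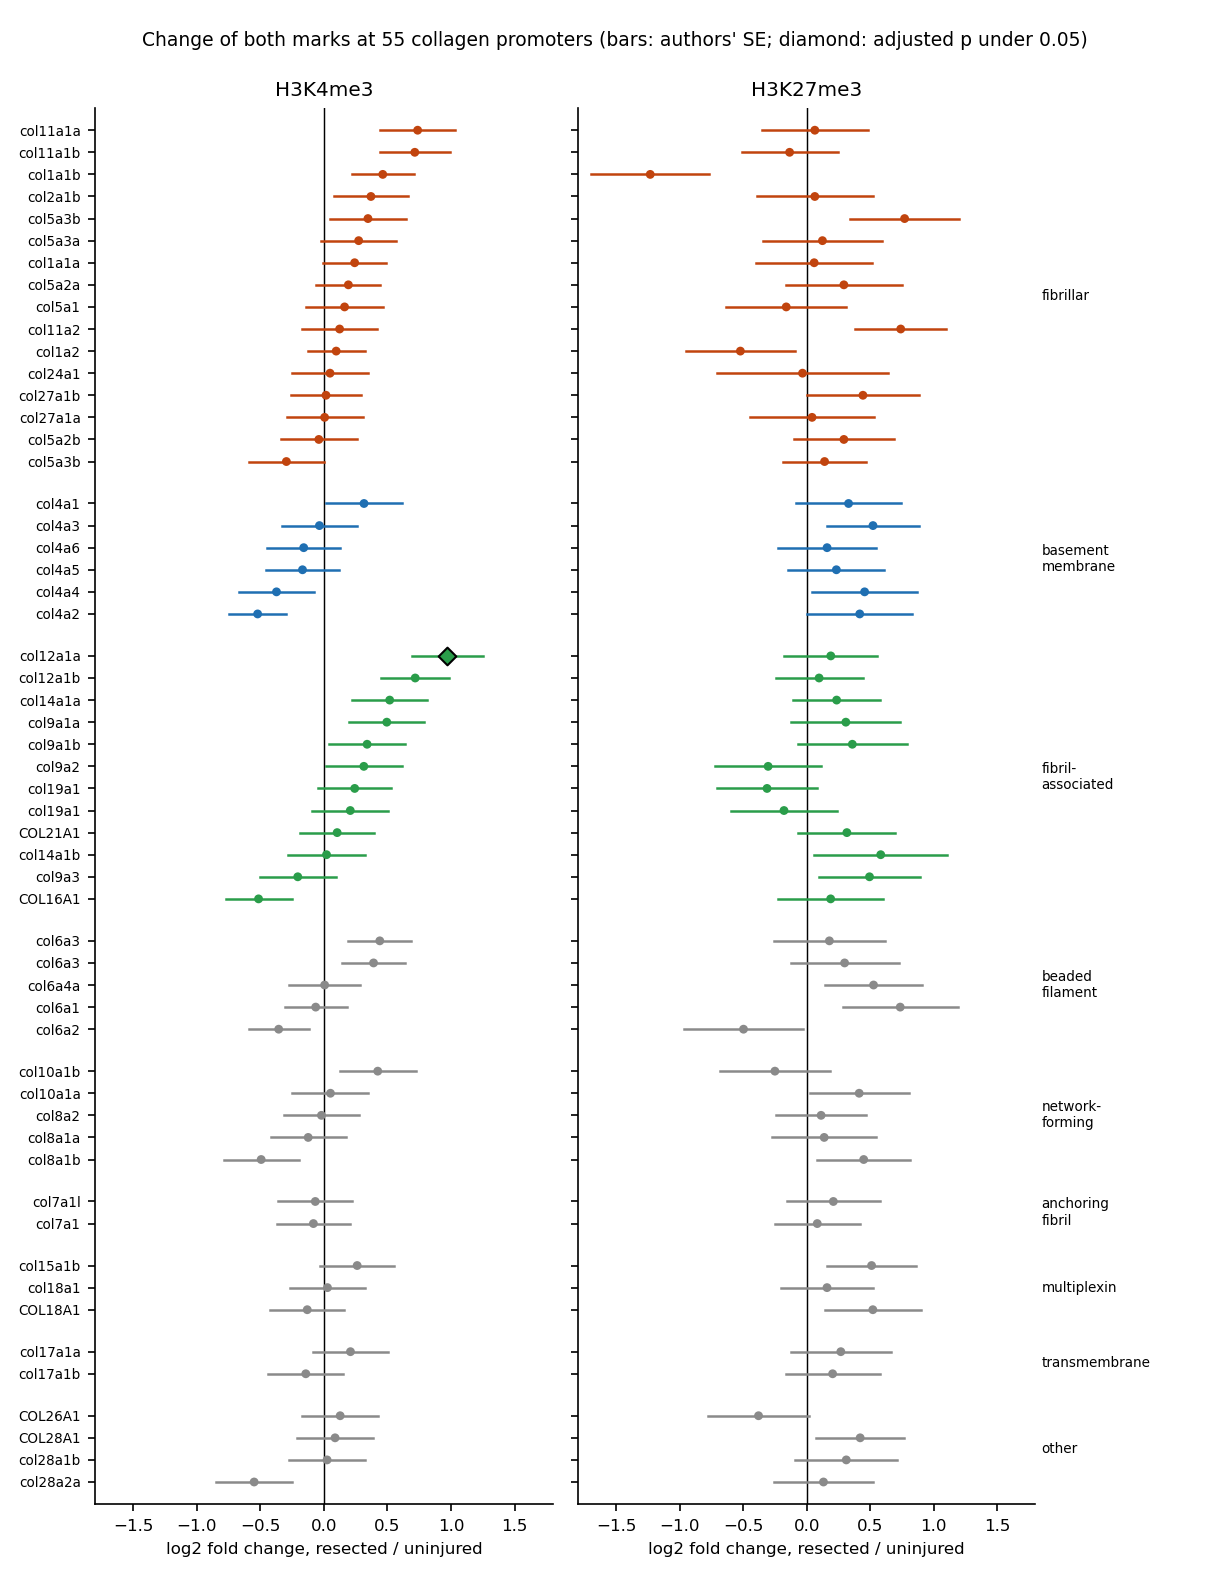
Authors' log2 fold change of resected over uninjured (x axis) for H3K4me3 (left) and H3K27me3 (right) at each of the 55 collagen gene IDs, grouped by class, with bars of 1 SE. For H3K4me3 the diamond at col12a1a is the single call, and 14 of 16 fibrillar, 1 of 6 basement membrane and 10 of 12 fibril-associated points lie above 0; for H3K27me3 all 6 basement membrane points lie above 0 and col1a1b is the lowest point.

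Many collagen genes have several annotated starts, and their windows were compared within each gene. Of the 55 collagens 23 had 1 window and 32 had several. In 21 genes, 32 further windows did not overlap the chosen one, and their authors' mean H3K4me3 counts were 17.2 to 67.0, with a median of 36.4. Lower counts follow from the way the chosen window was picked. Of the 32, 3 had an adjusted p, and the authors' DESeq2 test called 0 of those 3.

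At collagen XII the fold change was higher at the chosen window than at the others. The choice used a mean over both conditions, so a rise could lift a window into it, as could a high uninjured count. It was therefore not independent of these differences. At col12a1a the uninjured estimate of 43.7 at the chosen window lay below the mean count of 48.5 at the -118 kb window. The other col12a1a windows, at -178 and -118 kb from it, had authors' log2 fold changes of -0.24 and 0.02. The chosen window exceeded them by 1.21 (95% interval 0.41 to 2.01) and 0.95 (95% interval 0.15 to 1.76). At col12a1b the other windows, at -34.0 and -27.2 kb, had -0.11 and -0.43 in the authors' deposited table. There the chosen window exceeded them by 0.83 (95% interval 0.05 to 1.61) and 1.15 (95% interval 0.37 to 1.93). With the shrinkage undone the first of these col12a1b intervals ran from -0.04 to 2.36 and included 0.

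COL16A1 went the other way. Its chosen window had an authors' log2 fold change of -0.51 and a window at -23.7 kb from it had 0.35, a difference of -0.86 (95% interval -1.63 to -0.09). These 5 of 32 intervals excluded 0, or 4 of 32 with the shrinkage undone, with no adjustment over the 32. All these intervals treat the windows as independent, although they come from the same libraries, whose shared error was not known.

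**Figure D3:**
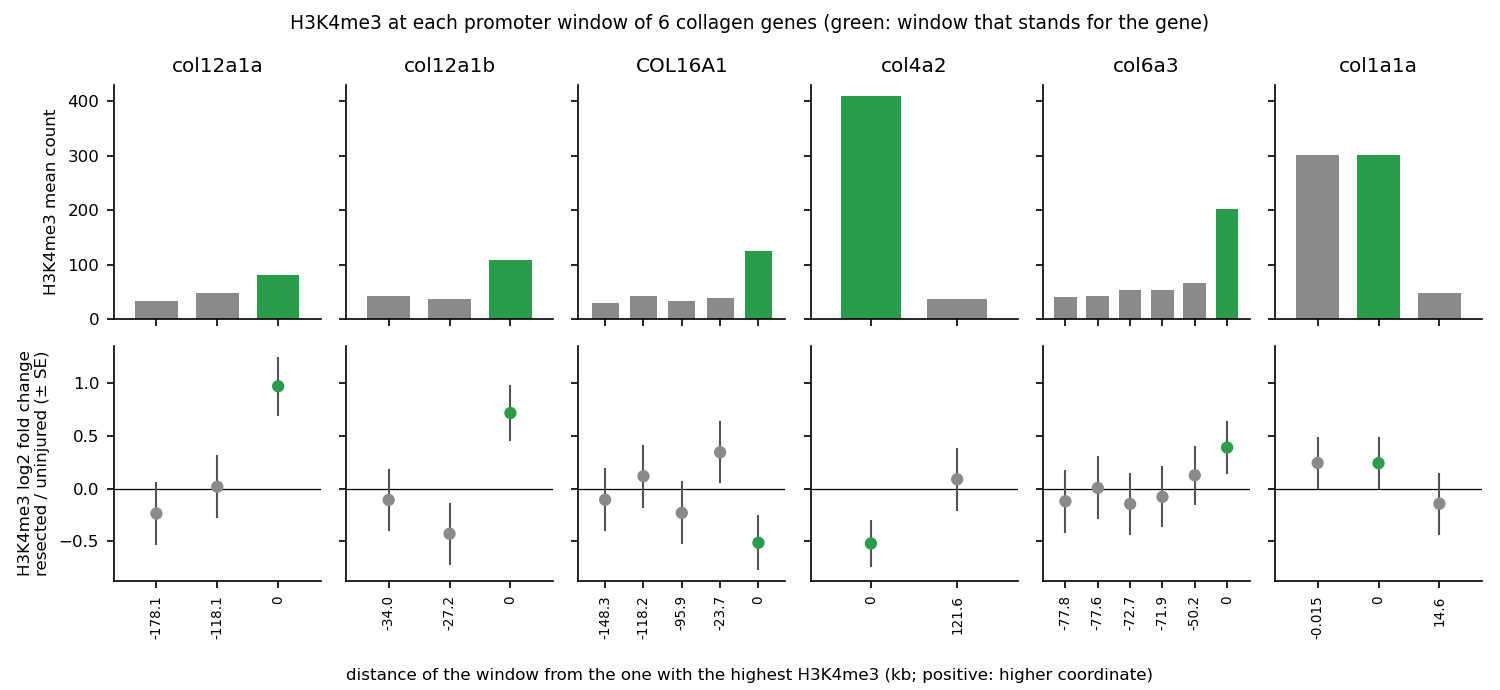
Authors' mean H3K4me3 count (upper bars, from 0) and log2 fold change with 1 SE (lower points) at each promoter window of 6 collagen genes, placed in order of position and labelled in kb from the window that stands for the gene (green). The green window has the highest count because it was chosen by it, over both conditions. A rise could thus lift a window into the choice, as could a high uninjured count. The fold change of the green window is the highest of its gene in col12a1a and col12a1b and the lowest in COL16A1.

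Zebrafish carry many collagen genes as duplicates from the genome duplication of teleost fish, and 11 such pairs could be compared. For H3K4me3, both copies lay above 0 in 7 pairs, both below in 1 and on opposite sides in 3. Of the 2 col5a3b IDs, the comparison used ENSDARG00000101816, which has the higher mean H3K4me3 count. The widest difference in the authors' log2 fold change was 0.57, between col5a3a at 0.27 and this ID at -0.30. With the other ID, ENSDARG00000098567, at 0.35, both copies lay above 0 in 8 pairs and on opposite sides in 2, and the widest difference was 0.50, between the col14a1 copies. The 95% interval of the difference included 0 in 11 of 11 pairs, with either col5a3b ID. The SE of the difference in the pairs first compared was between 0.35 and 0.42, so differences smaller than about 2 of these SE could not be seen.

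Some copies differed widely in level. The authors' mean H3K4me3 count was 214 at col5a2a and 35.2 at col5a2b, a ratio of 6.07. It was 98.6 at col27a1b and 25.6 at col27a1a, a ratio of 3.85. In contrast the copies of col17a1, col8a1 and col10a1 had ratios of 1.01 to 1.06, at low counts.

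**Figure D4:**
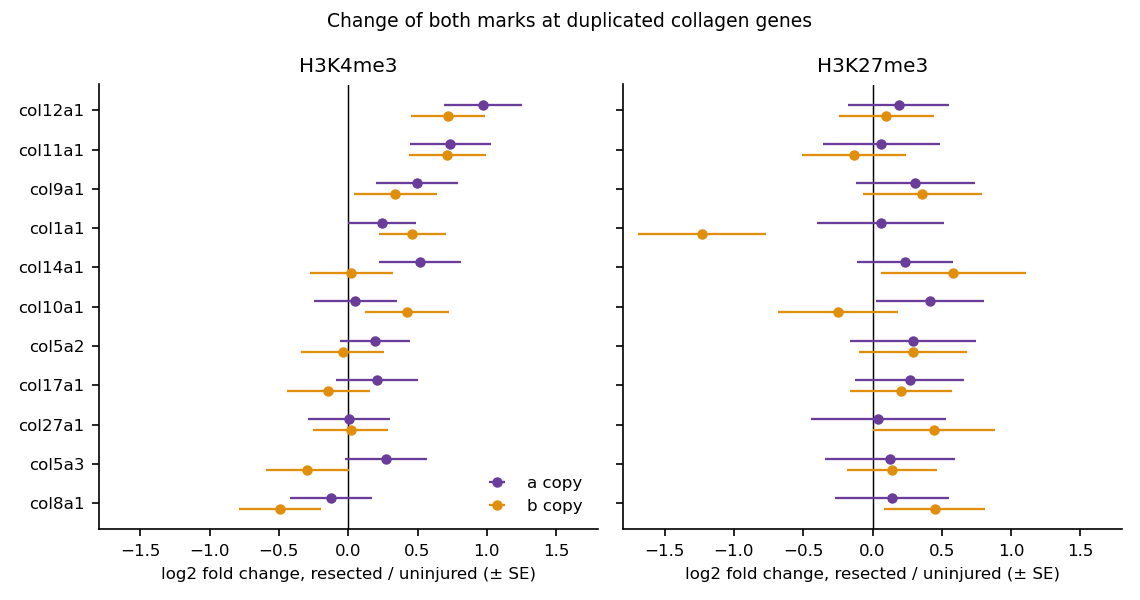
Authors' log2 fold change of resected over uninjured with 1 SE (x axis) for the a copy (purple) and b copy (orange) of 11 duplicated collagens, in H3K4me3 (left) and H3K27me3 (right). The copies of col12a1 and col11a1 lie together at 0.72 to 0.97 in H3K4me3, and the col1a1 copies lie apart in H3K27me3, at 0.06 and -1.23.

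The second comparison asked the same of H3K27me3. No collagen passed the test in either direction. Most collagens had fold changes slightly above 0, among them all 6 basement membrane genes. The col1a1b promoter had the lowest value and col11a2 the highest Wald statistic.

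By the authors' DESeq2 test, 0 of 55 collagens were called higher and 0 lower, where 0% of 24075 genes were called in either direction. At an unadjusted p under 0.05 there was 1 collagen higher and 1 lower, against 1.07% and 2.04% of genes. The SE of the authors' H3K27me3 log2 fold change had a median of 0.40 over collagens. For H3K4me3 the median SE was 0.29 as deposited and 0.49 with the shrinkage undone. The second value rests on the inferred prior, and whether the H3K27me3 values carry a prior is not known. Which mark was the more precise was therefore not settled.

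The lower gene was col1a1b (chr12:3096751-3100750, minus strand). The authors' deposited table puts its mean H3K27me3 count at 54.9, with a log2 fold change of -1.23 (SE 0.46, DESeq2 unadjusted p = 0.00783), with an adjusted p close to 1. That corresponds to about 77.0 in uninjured and 32.8 in resected ventricles. Its duplicate col1a1a had 0.06 (SE 0.46), and the difference between the copies was 1.29 (SE 0.65, 95% interval 0.01 to 2.57). This was the 1 of 11 pairs whose interval excluded 0, with a lower end close to 0 and no adjustment over the pairs. The remaining collagen I chain, col1a2, had -0.52 (SE 0.43) in the authors' deposited table.

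The higher gene was the cartilage collagen chain col11a2, with an authors' log2 fold change of 0.74 (SE 0.36, DESeq2 unadjusted p = 0.0380) from a mean H3K27me3 count of 90.8. Next in the Wald statistic came the col5a3b ID ENSDARG00000098567 with 0.77 (SE 0.43), col6a1 with 0.74 (SE 0.45), col15a1b with 0.51 (SE 0.35) and col4a3 with 0.52 (SE 0.36). At the low end, after col1a1b and col1a2, came col6a2 with -0.50 (SE 0.47), COL26A1 with -0.38 (SE 0.40) and col19a1 with -0.31 (SE 0.40). All of these lay within 2 SE of 0 in the authors' deposited table except col1a1b and col11a2.

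For H3K27me3 the fold changes leaned to the side above 0. Of 55 collagens 44 lay above 0, or 80.0%, with a median of 0.20, against 49.8% of all genes with a median of -0.0018. The other 11 collagens lay below 0, as did 50.2% of genes. By class it was 11 of 16 fibrillar genes with a median of 0.06, 6 of 6 basement membrane genes with a median of 0.37, 9 of 12 fibril-associated genes with a median of 0.21, and 18 of 21 others with a median of 0.21. The basement membrane values ran from 0.16 at col4a6 to 0.52 at col4a3.

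The share of genes above 0 for H3K27me3 also differed with the level of H3K4me3, so the collagens were set beside genes of like level. Among genes with an H3K4me3 mean under 100, 61.8% lay above 0 for H3K27me3, and 36 of 44 collagens, or 81.8%, did. When the H3K27me3 mean was also above the median gene, the shares were 64.4% of genes and 29 of 35 collagens, or 82.9%. With an H3K4me3 mean of at least 100 they were 37.6% of genes and 8 of 11 collagens, or 72.7%. These shares are descriptions, with no test, and the members share their libraries.

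The third comparison set the marks against each other at the same window. In 26 collagens both fold changes lay above 0, in 10 H3K4me3 lay above and H3K27me3 below, in 18 H3K4me3 lay below and H3K27me3 above, and in 1, col6a2, both lay below. The opposed patterns took 28% and 25.6% of all genes. Of 24075 genes, 11996 lay above 0 for H3K27me3, and at 6154 of these H3K4me3 lay below 0. The rest of the 11996 had both marks above 0. Another 12079 lay below 0 for H3K27me3, and at 6750 of these H3K4me3 lay above 0. The rest of the 12079 had both marks below 0. Taken singly, 52.3% of genes lay above 0 for H3K4me3 and 49.8% for H3K27me3. A z test of the difference between the fold changes, with the shrinkage of H3K4me3 undone and p adjusted over all genes, passed at 0 of 55 collagens, against 0.162% of genes in the H3K4me3-higher and 0.253% in the H3K4me3-lower direction. With the fold changes as deposited it also passed at 0 of 55, against 0.0415% and 0.112%.

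At an unadjusted p under 0.05 the H3K4me3 fold change was the higher at 3 collagens and the lower at 2, against 4.18% and 3.23% of genes. For col1a1b the H3K4me3 fold change exceeded that of H3K27me3 by 1.81 (SE 0.55, z test adjusted p = 0.131). For col12a1a the difference was 1.23 (SE 0.55, z test adjusted p = 0.531), and for col11a1b 1.15 (SE 0.54, z test adjusted p = 0.606). In the other direction col8a1b had -1.28 (SE 0.62, z test adjusted p = 0.623) and col4a2 -1.04 (SE 0.50, z test adjusted p = 0.609). Of the collagens, col1a1b had the widest gap between the marks, with deposited fold changes of 0.46 for H3K4me3 and -1.23 for H3K27me3, neither of which was called.

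Genes that build, modify and bind collagen were taken from a list of 72 symbols, of which 65 were found. Of these 43 had an adjusted p for H3K4me3, and 1 was called higher and 0 lower by the authors' DESeq2 test, against 1.52% and 1.4% of all genes. At an unadjusted p under 0.05 there were 6 of 65 higher and 2 lower, against 4.26% and 4.61% of genes. The gene that rose was ddr2a, which encodes a discoidin domain receptor, a tyrosine kinase that binds fibrillar collagen. The authors' deposited table puts its mean H3K4me3 count at 94.1, with a log2 fold change of 1.01 (SE 0.27, DESeq2 adjusted p = 0.00967).

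The 15 receptor genes had a median H3K4me3 log2 fold change of -0.04, so ddr2a stood apart from the others of its list. Its paralogs ddr2b and ddr2l had -0.04 and 0.19 in the authors' deposited table. Among 50 assembly genes 33 lay above 0, with a median of 0.11, where 52.3% of all genes lay above 0. The parts of this list other than the lysyl oxidases had medians between 0.06 and 0.18. Lysyl oxidases, which cross-link collagen, had 7 of 9 above 0 and the highest median of the parts, 0.37. Of that family, named after the values were seen, loxl2b had 0.68 (SE 0.26, DESeq2 adjusted p = 0.177), while loxl1 had -0.50 (SE 0.23, DESeq2 adjusted p = 0.343).

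For H3K27me3 the authors' DESeq2 test called 0 of the 65 genes, as it called 0% of all genes. At an unadjusted p under 0.05 there was 1 higher and 0 lower, against 1.07% and 2.04% of genes. That gene was pcolcea, an enhancer of procollagen cleavage, with 0.95 (SE 0.38, DESeq2 unadjusted p = 0.0123). Next in p came the integrin alpha 2 gene itga2.2 with -0.74 (SE 0.38) and ddr2l with -0.80 (SE 0.42).

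Markers of cell types also moved with resection. By the authors' DESeq2 test, and counted over the markers with an adjusted p, H3K4me3 was lower at 11 of 15 cardiomyocyte markers, where 1.4% of all genes were lower. It was higher at 4 of 7 epicardial, 6 of 8 leukocyte, 4 of 8 erythroid and 1 of 6 fibroblast markers, where 1.52% of all genes were higher. The erythroid calls were all globin genes, while gata1a, alas2 and slc4a1a were not called. Whether the globin windows overlap was not examined, so these calls may not be separate measurements. Endocardial and endothelial markers were lower at 3 of 10 (1 of 10 with no filter on low counts), and smooth muscle and pericyte markers at 1 of 4. The median log2 fold change over all listed genes was -1.12 for cardiomyocyte, 1.00 for epicardial, 0.97 for leukocyte, 0.81 for erythroid and 0.24 for fibroblast markers. It was -0.58 for endocardial and endothelial and -0.27 for smooth muscle and pericyte markers. For H3K27me3 no marker was called. The median H3K27me3 log2 fold change was 0.43 for cardiomyocyte, 0.32 for smooth muscle and pericyte, and 0.21 for endocardial and endothelial markers. For fibroblast and erythroid markers it was -0.02 each, for epicardial -0.20 and for leukocyte -0.40, beside 0.20 for the collagens.

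Beside the H3K4me3 medians of the markers stand the collagen medians of 0.18 for fibrillar, -0.16 for basement membrane and 0.28 for fibril-associated genes, and the value of 0.97 at col12a1a. The fibroblast gene called was prrx1a, with 0.93 (SE 0.27, DESeq2 adjusted p = 0.0293). The authors' mean H3K4me3 counts of the lists were 49.8 to 393 for cardiomyocyte, 54.9 to 253 for epicardial and 44.5 to 305 for fibroblast markers, so none was at 0. The fibroblast markers dcn and lum also belong to the assembly list. In bulk chromatin, more cells that carry a mark and more mark per cell cannot be told apart, and the part of cell composition in the collagen values was not tested.

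**Figure D5:**
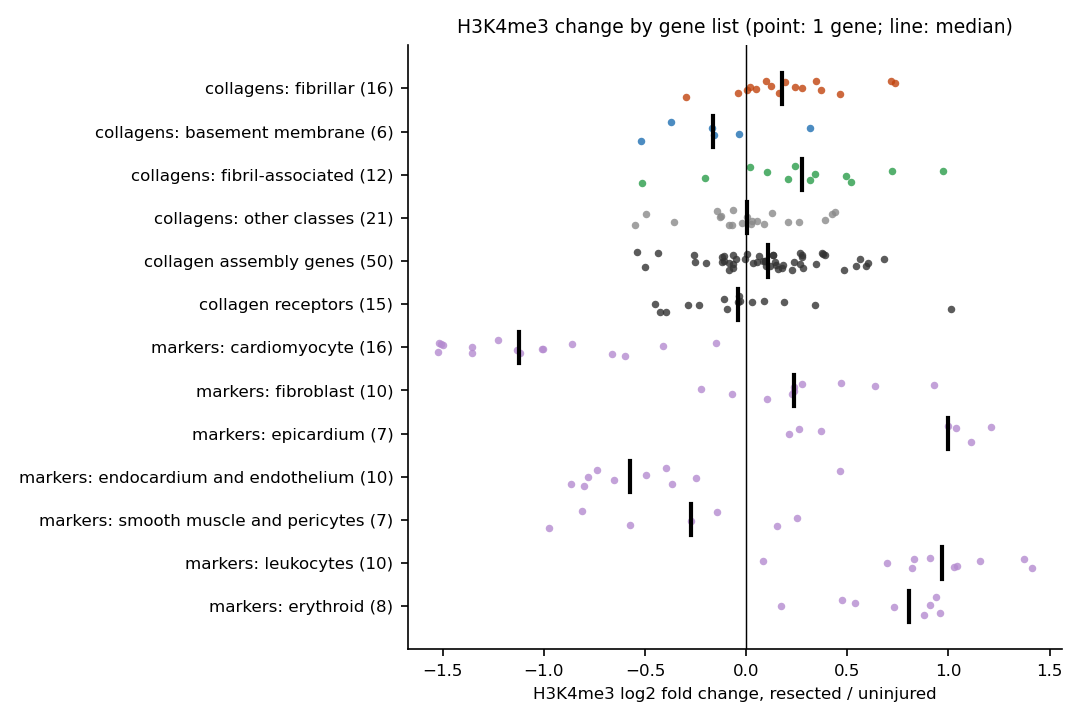
Authors' H3K4me3 log2 fold change of resected over uninjured (x axis) for each gene (points) of the collagen classes, the collagen assembly and receptor lists and the cell type marker lists, with the number of genes in brackets and the median as a black line. Medians of the collagen classes lie between those of the cardiomyocyte markers, at -1.12, and of the epicardial and leukocyte markers, at 1.00 and 0.97. The fibroblast median of 0.24 lies among them. Single genes overlap between the lists, with col12a1a at 0.97, the epicardial tcf21 at 0.21 and the cardiomyocyte nppb at -0.15.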

How the data were processed

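Zebrafish ventricles were profiled by ChIP-seq for H3K4me3 and H3K27me3 in 3 uninjured and 3 resected libraries per mark. The authors' deposited tables, 1 per mark, hold 42037 promoter windows (41998 of them 4000 bases wide) with a mean normalised count, a log2 fold change, its standard error, a Wald statistic (a score, the fold change over its error), a p-value and an adjusted p-value; the mean count is the authors' signal over all libraries of a mark. The column names are those of DESeq2, which the submitters' processing notes name beside BWA, Bowtie2 2.3.2, MACS2, Picard 2.8.1, SAMtools, bedtools 2.26.0 and the builds danRer7, GRCz10 and danRer10, without roles. How windows were counted and normalised, and library depths, are not given in the sources used here.

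The deposited H3K4me3 log2 fold changes have standard errors that stop at a ceiling, as a normal prior gives. The prior SD was inferred from that ceiling as 0.603 and undone as an alternative, which multiplied collagen fold changes by 1.20 to 2.38. The H3K27me3 fold changes were used as deposited. In both marks the Wald statistic matched the fold change over its standard error closely, which cannot show whether a prior was used. Adjusted p-values for H3K4me3 start at a mean count of 51.8. Differences between marks used the H3K4me3 values with the shrinkage undone, and those between windows and duplicates the deposited ones. All used a z statistic, with 95% intervals for windows and duplicates and, for marks, Benjamini-Hochberg adjustment over all genes. This was tested on simulated data, which cannot show that the inferred prior holds here or that windows and marks are independent.

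Mitochondrial gene IDs were left out. Members, classes and gene lists were chosen with earlier results of these data known. Genes were named if called, among the 5 highest or 5 lowest Wald statistics of a mark, among the 2 highest mean counts of the fibrillar, basement membrane or fibril-associated class, or overlapping another collagen's window, and in the assembly and receptor list if called or, with none called, among the 3 smallest p-values; others were named after their values were seen. Gene names came from the tables, and 52 of 55 IDs were found in a gene name table. Coordinates are 1-based. Alternatives were other thresholds, filters and window choices, 1 ID per symbol, and the shrinkage undone. Python 3.11.15, pandas 2.3.3, numpy 2.4.6, SciPy 1.17.1 and matplotlib 3.10.9 were used.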

Additional observations from a re-analysis of the deposited data

How the results depend on the processing

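Recomputing 21 results, mainly the counts of collagens called and the class medians of fold change and of mean count, with other choices gave 97 values. Of these 96 kept the direction. Their class medians also stayed within the semi-interquartile range of the class, apart from the fibril-associated H3K4me3 median with the shrinkage undone. That median went from 0.28 to 0.50, slightly more than this range of the deposited values. The remaining 1 moved: the median H3K4me3 log2 fold change of basement membrane collagens was -0.16 as reported. It was 0.14 with no window shared with another gene, an alternative that by its construction leaves col4a1 and col4a3. The number of collagens called stayed at 1 higher and 0 lower for H3K4me3, and at 0 for H3K27me3, with a threshold of 0.1, no filter on low counts, a mean count of at least 50, every window, the window of highest H3K27me3, 1 ID per symbol, or the ceramide transfer proteins kept; the last 2 were chosen after seeing the data. For H3K27me3, 0% of all genes were called at a threshold of 0.05 or 0.1, with no filter, or with a mean of at least 50. Its counts of 0 under those choices could not have moved and say nothing of how stable the result is. The adjusted p of col12a1a was 0.0385 with no filter and 0.0235 with a mean of at least 50. With the shrinkage undone the H3K4me3 class medians were 0.28 for fibrillar, -0.25 for basement membrane and 0.50 for fibril-associated genes. The fibril-associated median of 0.28 fell to 0.11 with every window and to 0.16 with the window of highest H3K27me3. The other col5a3b ID, tried after seeing the data, left 0 duplicate pairs with an interval that excludes 0. No paired analysis was possible because the tables used carry no values per library; for the same reason leaving out each replicate, another normalisation and a check for outlying libraries were not run. The precision is limited by 3 libraries a group, and 31 collagens had H3K4me3 counts too low for an adjusted p.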

Other observations

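A second window of col18a1, 92.8 kb from the one that stands for the gene, had an authors' H3K27me3 log2 fold change of -1.05 (DESeq2 unadjusted p = 0.00698, not called) from a mean count of 89.3. Collagen XVIII is a basement membrane proteoglycan whose C-terminal fragment is endostatin, and its gene uses separate promoters for short and long forms in mammals. The representative col18a1 window had 0.16 in the authors' deposited table. The window was picked after its value was seen.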
